A study of Homo sapiens with 4 samples.

Results

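The PI3K, AKT, mTOR and FOXO pathway was followed through 31 genes in 22Rv1 cells, a human prostate cancer line, with and without a knockout of CD276. The 31 genes were taken by name from the deposited table of counts per gene, where they are 31 of 57014 named rows, and were sorted by role into a receptor side of 4 genes, 18 kinase genes (with PI3K subunits and mTOR partners), 6 brakes and 3 FOXO factors. The rule that picks them uses their names and no measured value, and the list was drawn up with earlier results of these data known. Of the 31, 30 passed the filter on low counts and are among the 18043 genes tested; PIK3CD did not pass.

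Insulin and insulin-like growth factors bind receptor kinases at the cell surface, which recruit class I PI3K through the IRS adaptor proteins. PI3K makes a membrane lipid that brings AKT to its activating kinases, and active AKT phosphorylates GSK3, the TSC complex and the FOXO factors, so that mTOR complex 1 is switched on and FOXO proteins leave the nucleus. In prostate cancer the pathway is often overactive, and it is known for feedback in which mTOR and S6 kinase restrain IRS1. These steps are mostly phosphorylation events, and transcript counts do not measure them.

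The knockout group holds 2 libraries, replicates 1 and 3, with sgCD276 in their names, and the control group holds 2, also replicates 1 and 3, labelled wild type, with sgGFP in their names. CD276 encodes B7-H3, an immune checkpoint protein on the cell surface, and the comparison asks what differs in this line once it is knocked out. Cells of both groups grew in RPMI-1640 with 10% FBS, and poly(A) RNA was sequenced as paired reads of 150 bases. The sources used here do not say whether the knockout cells are 1 clone or a pool. The replicates are called biological but are not said to come from separate cultures, so a p-value reflects only how far these libraries spread, which may be technical.

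The counts summed to 24437926 and 25802417 in the knockout libraries and to 23206271 and 20079050 in the control libraries. Levels are normalized CPM, meaning counts scaled to 1e+06 per library after TMM scaling. A gene is said to have risen or fallen where edgeR's quasi-likelihood test of knockout over control gave a Benjamini-Hochberg adjusted p under 0.05 over all genes tested. By that rule 1780 genes (9.87%) rose and 2331 (12.9%) fell; scaled by library totals alone, 2340 (13.0%) rose and 1781 (9.87%) fell, and the all-gene median moved up by 0.11 on the log2 scale. CD276 itself (ENSG00000103855.17, chr15:73683966-73714518, plus strand, GRCh38) had 23.6 and 26.2 CPM in knockout libraries and 47.4 and 54.4 CPM in control libraries; the log2 fold change was -1.03 ± 0.16 with an edgeR adjusted p of 0.00561. Its edgeR adjusted p was 0.0557 without control replicate 1 and 0.0813 without control replicate 3. Transcript remained in both knockouts, and a gene count cannot show the edit itself.

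The 9 markers of the line and of prostate epithelium reported here, among them KLK3 and HOXB13, were all expressed, at a summed 3122 and 3853 CPM in knockout libraries and 3769.7 and 3694 CPM in control libraries; CDH1 rose, KRT18 fell and 7 did not pass the test. Of 10 markers of blood, stromal, endothelial and basal cells, 3 passed the filter on low counts. The basal marker KRT5 and the leukocyte marker PTPRC had at most 3 counts in a library, and CD3E and PECAM1 had 0 counts in all 4. The exception was COL1A1, a fibrillar collagen gene, at 18.9 and 29.1 CPM in knockout libraries and 49.98 and 46.2 CPM in control libraries; the other 9 summed to 1.18 and 4.37 CPM in knockout libraries and 2.02 and 2.22 CPM in control libraries. In bulk RNA, fewer cells that express a gene and less of its RNA per cell cannot be told apart.

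Of the 30 pathway genes tested, 6 (20.0%) rose, 0 fell and 24 did not pass the test, where 22.8% of all genes changed in either direction. The 6 were IRS1 on the receptor side, PIK3CB, PIK3R1 and GSK3B among the kinase genes, INPP4B among the brakes and FOXO3 among the FOXO factors. Their folds ran from 1.47 in GSK3B to 1.98 in PIK3R1. Beside the 20.0%, 9.87% of all genes tested rose; among the nuclear protein-coding genes of the same fit, 12.2% rose and 11.2% fell. The 0 that fell stands beside 12.9% of all genes; DESeq2 called 6 higher and 0 lower (11.2% and 10.7% of all genes), and so did limma voom (9.08% and 12.9%). At an unadjusted edgeR p under 0.05 the counts were 8 higher and 2 lower (17.9% and 20.9% of all genes).

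The median log2 fold change of the 30 genes was 0.18, with a range of -0.57 to 0.99. That of all genes tested was -0.0045, and that of the nuclear protein-coding genes was 0.058. Both knockouts lay above both controls in 12 of the 30 (31.8% of all genes) and below both in 7 (34.1% of all genes), and the groups overlapped in 11. The 6 calls rest on both controls being in the fit, and most calls over all genes were likewise lost without either control. Such a fit leaves a lone library in the control group. The log2 fold changes of the 6 then ran from 0.49 in GSK3B without control replicate 1 to 1.11 in PIK3R1 without control replicate 3.

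**Figure D1:**
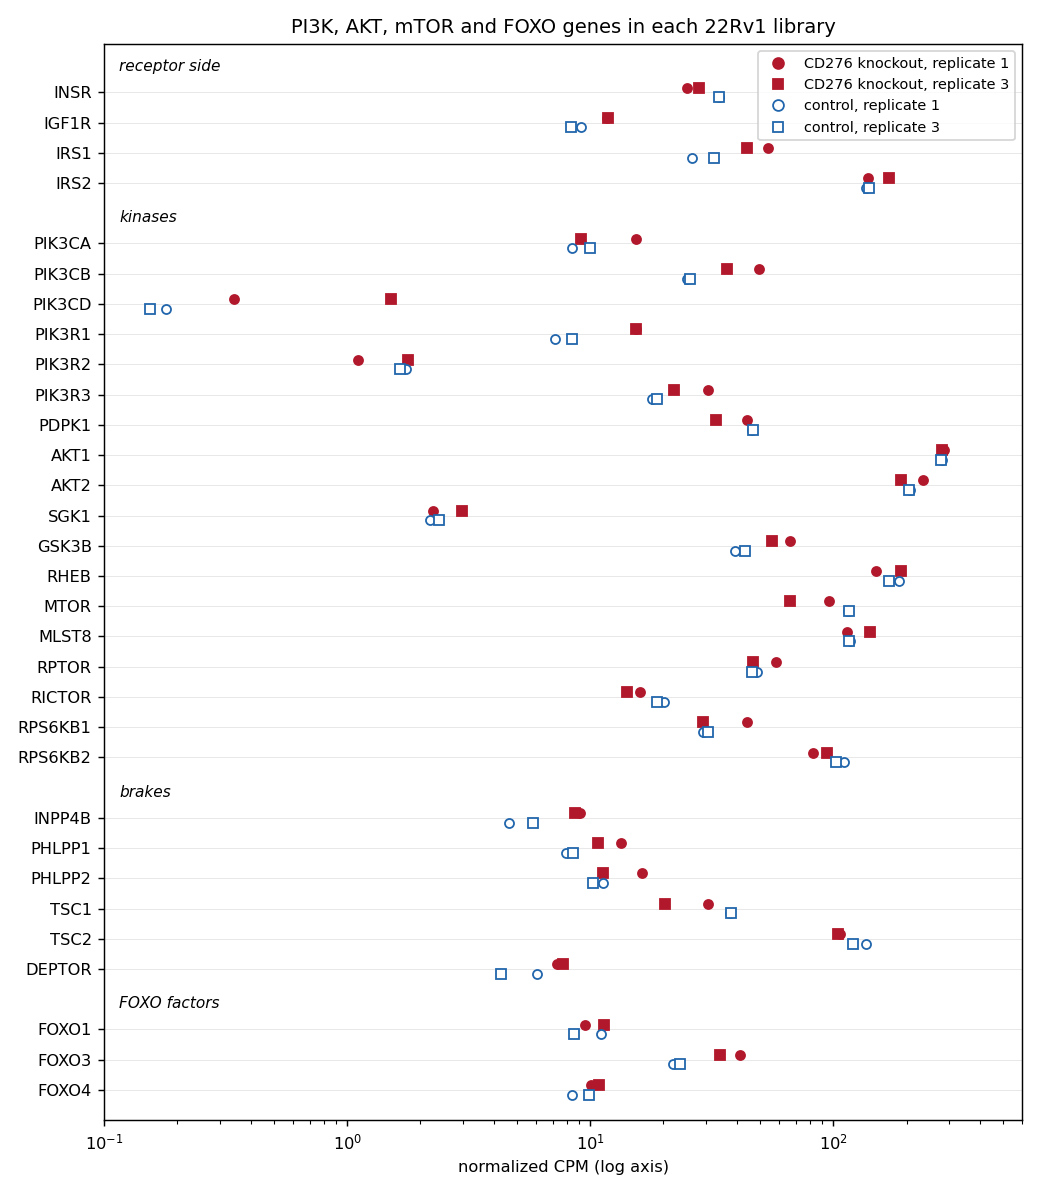
Normalized CPM (log axis) of each pathway gene in the 2 knockout and 2 control libraries, grouped by role, with each point 1 library. The 6 genes that rose have both knockout points to the right of both control points, and AKT1 has the highest level, at 278 to 284 CPM in all 4 libraries.

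On the receptor side, IRS1 rose and the 3 others did not pass the test. IRS1, the adaptor that couples the insulin and IGF1 receptors to PI3K (chr2:226731317-226799759, minus strand), had 53.9 and 44.0 CPM in knockout libraries and 26.2 and 32.4 CPM in control libraries. The groups did not overlap, and the lowest knockout stood above the highest control. Its mean was 48.9 ± 7.05 CPM in knockouts and 29.3 ± 4.40 CPM in controls (SD, n = 2 each), a 1.67-fold difference with a log2 fold change at 0.74 ± 0.18 (edgeR adjusted p = 0.0204).

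The 2 receptors lay on opposite sides of their controls without passing the test. INSR, the insulin receptor, had 25.1 and 28.0 CPM in knockout libraries and 33.8 CPM in each control library (log2 fold change -0.35 ± 0.15, edgeR adjusted p = 0.131). IGF1R, the IGF1 receptor, had 11.7 and 11.9 CPM in knockout libraries and 9.14 and 8.31 CPM in control libraries (0.43 ± 0.19, edgeR adjusted p = 0.134). In neither gene did the groups overlap. IRS2, the second broadly expressed adaptor, had 139 and 169 CPM in knockout libraries and 136 and 140 CPM in control libraries, so that the groups overlapped (0.16 ± 0.15, edgeR adjusted p = 0.462).

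Among the PI3K subunits, the catalytic gene PIK3CB and the regulatory gene PIK3R1 rose. PIK3R1, which encodes the regulatory subunit that docks PI3K on phosphorylated receptors and adaptors (chr5:68215720-68301821, plus strand), had 15.5 and 15.4 CPM in knockout libraries and 7.17 and 8.42 CPM in control libraries. The knockouts were almost equal and both stood well above the controls. Its mean was 15.4 ± 0.054 CPM in knockouts and 7.79 ± 0.88 CPM in controls (SD, n = 2 each), 1.98-fold apart, and the log2 fold change was 0.99 ± 0.19 (edgeR adjusted p = 0.0111), the largest of the 30.

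PIK3CB, the beta catalytic subunit (chr3:138652699-138834938, minus strand), had 49.3 and 36.5 CPM in knockout libraries and 25.0 and 25.8 CPM in control libraries. Knockout replicate 1 was the highest, and replicate 3 was also above both controls. The means were 42.9 ± 9.10 CPM in knockouts and 25.4 ± 0.55 CPM in controls (SD, n = 2 each), and the log2 fold change was 0.76 ± 0.18 (edgeR adjusted p = 0.0210). PIK3CA, the alpha catalytic subunit and a frequent site of activating mutations in cancer, had 15.4 and 9.12 CPM in knockout libraries and 8.42 and 9.96 CPM in control libraries. One knockout lay above the controls and the other between them (log2 fold change 0.42 ± 0.27, edgeR adjusted p = 0.285), and 35.8% of its annotated exon length lies opposite KCNMB3.

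PIK3CD, the delta catalytic subunit known from leukocytes (chr1:9651732-9729114), was close to absent. It had 9 and 39 counts in knockout libraries and 4 and 3 counts in control libraries, or 0.343 and 1.51 CPM in knockouts and 0.179 and 0.155 CPM in controls, and was not tested in the filtered fit. A fit with no filter on low counts gave it a log2 fold change of 2.45 and called it; most of its knockout counts are in replicate 3, which also had the highest summed level of the markers of other cell types apart from COL1A1 (4.37 CPM in that library), and whether the 2 belong together was not tested. PIK3R3, a regulatory subunit, had 30.4 and 22.2 CPM in knockout libraries and 17.96 and 18.8 CPM in control libraries, with no overlap (0.51 ± 0.19, edgeR adjusted p = 0.0846). PIK3R2, another regulatory subunit, was low at 1.10 and 1.78 CPM in knockout libraries and 1.75 and 1.65 CPM in control libraries (-0.24 ± 0.40, edgeR adjusted p = 0.6997), and 87.2% of its exon length is shared on the same strand with AC007192.1, so its counts are uncertain.

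Below PI3K, the AKT genes stayed within the spread of the libraries and GSK3B rose. GSK3B, a kinase that AKT inhibits and that restrains glycogen synthesis and beta-catenin (chr3:119821323-120094417, minus strand), had 66.1 and 55.7 CPM in knockout libraries and 39.4 and 43.3 CPM in control libraries. Both knockouts stood above both controls. The means were 60.9 ± 7.39 CPM in knockouts and 41.3 ± 2.79 CPM in controls (SD, n = 2 each), and the log2 fold change was 0.56 ± 0.15 (edgeR adjusted p = 0.0318).

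AKT1 had 284 and 279 CPM in knockout libraries and 280.4 and 278 CPM in control libraries (log2 fold change 0.01 ± 0.14, edgeR adjusted p = 0.951); the sign turned with upper quartile scaling, with a filter of 50 counts and with nuclear protein-coding genes alone. AKT2 had 235 and 189.6 CPM in knockout libraries and 207 and 204 CPM in control libraries (0.05 ± 0.15, edgeR adjusted p = 0.849). In both genes the groups overlapped. PDPK1, the kinase that activates AKT, had 44.2 and 32.9 CPM in knockout libraries and 46.5 and 46.6 CPM in control libraries, with both knockouts below (-0.27 ± 0.17, edgeR adjusted p = 0.281); it has a near-identical copy in the genome, so its counts are uncertain. SGK1, a kinase related to AKT, was low, at 2.25 and 2.98 CPM in knockout libraries and 2.19 and 2.37 CPM in control libraries (0.19 ± 0.33, edgeR adjusted p = 0.701).

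Of the 7 genes made up of RHEB, the mTOR subunits and the S6 kinases, 0 passed edgeR's test, nor did any by DESeq2 or limma voom, and MTOR was the 1 gene with an unadjusted edgeR p under 0.05. MTOR, the catalytic kinase of both complexes, had 96.2 and 66.6 CPM in knockout libraries and 115 and 116 CPM in control libraries. Both knockouts lay below both controls, replicate 3 further than replicate 1, and the log2 fold change was -0.50 ± 0.18 (edgeR adjusted p = 0.0764). RICTOR, the defining subunit of complex 2, was likewise below the controls, at 16.03 and 14.1 CPM in knockout libraries and 20.2 and 18.8 CPM in control libraries (-0.37 ± 0.17, edgeR adjusted p = 0.148).

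RPTOR, the defining subunit of complex 1, had 58.3 and 46.9 CPM in knockout libraries and 48.6 and 46.3 CPM in control libraries, so that the groups overlapped (0.15 ± 0.16, edgeR adjusted p = 0.520). MLST8, a subunit of both complexes, had 113 and 141 CPM in knockout libraries and 117 and 116 CPM in control libraries (0.13 ± 0.15, edgeR adjusted p = 0.572). RHEB, the small GTPase that activates complex 1, had 149.5 and 190.3 CPM in knockout libraries and 186 and 170.1 CPM in control libraries; its log2 fold change was -0.07 ± 0.16 with TMM scaling (edgeR adjusted p = 0.790) and 0.035 with library totals. In all 3 the groups overlapped.

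The S6 kinases, which phosphorylate ribosomal protein S6, did not pass the test. RPS6KB1 had 44.0 and 29.1 CPM in knockout libraries and 29.2 and 30.6 CPM in control libraries, so that knockout replicate 1 lay above both controls and replicate 3 below both (0.29 ± 0.21, edgeR adjusted p = 0.33297). RPS6KB2 had 82.8 and 94.2 CPM in knockout libraries and 111 and 102 CPM in control libraries, with no overlap (-0.27 ± 0.14, edgeR adjusted p = 0.195).

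In all 6 brakes the knockout and control libraries did not overlap (65.9% of all genes tested did not), with 4 above the controls and 2 below, and INPP4B alone passed the test. INPP4B, a phosphatase that acts on a lipid made downstream of PI3K (chr4:142023160-142847432, minus strand), had 9.10 and 8.62 CPM in knockout libraries and 4.61 and 5.78 CPM in control libraries. Both knockouts were above both controls. The means were 8.86 ± 0.34 CPM in knockouts and 5.20 ± 0.83 CPM in controls (SD, n = 2 each), and the log2 fold change was 0.77 ± 0.23 (edgeR adjusted p = 0.0423); with nuclear protein-coding genes alone it was 0.74 and the call was lost (edgeR adjusted p = 0.0513).

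The PHLPP phosphatases, which remove an activating phosphate from AKT, were above the controls without passing. PHLPP1 had 13.4 and 10.8 CPM in knockout libraries and 7.97 and 8.52 CPM in control libraries (0.55 ± 0.21, edgeR adjusted p = 0.0843). PHLPP2 had 16.3 and 11.33 CPM in knockout libraries and 11.29 and 10.2 CPM in control libraries (0.36 ± 0.22, edgeR adjusted p = 0.266). DEPTOR, an inhibitory partner of mTOR, had 7.27 and 7.73 CPM in knockout libraries and 6.05 and 4.29 CPM in control libraries (0.53 ± 0.25, edgeR adjusted p = 0.153).

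TSC1 and TSC2, of the complex that switches RHEB off, were below the controls without passing the test. TSC1 had 30.4 and 20.4 CPM in knockout libraries and 37.5 and 37.9 CPM in control libraries (-0.57 ± 0.20, edgeR adjusted p = 0.0724), which is the most negative value of the 30. TSC2 had 106 and 104 CPM in knockout libraries and 136 and 121 CPM in control libraries (-0.29 ± 0.14, edgeR adjusted p = 0.152). MTOR and TSC1 thus missed the threshold in the main fit, which used TMM scaling. Both also missed it with RLE, upper quartile and library-total scaling, and by DESeq2 and limma voom. Both were called lower with no filter on low counts (edgeR adjusted p of 0.0257 for MTOR and 0.0203 for TSC1). With TMM scaling and offsets for GC and length they were called lower as well (edgeR adjusted p of 0.0153 for MTOR and 0.0134 for TSC1).

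**Figure D2:**
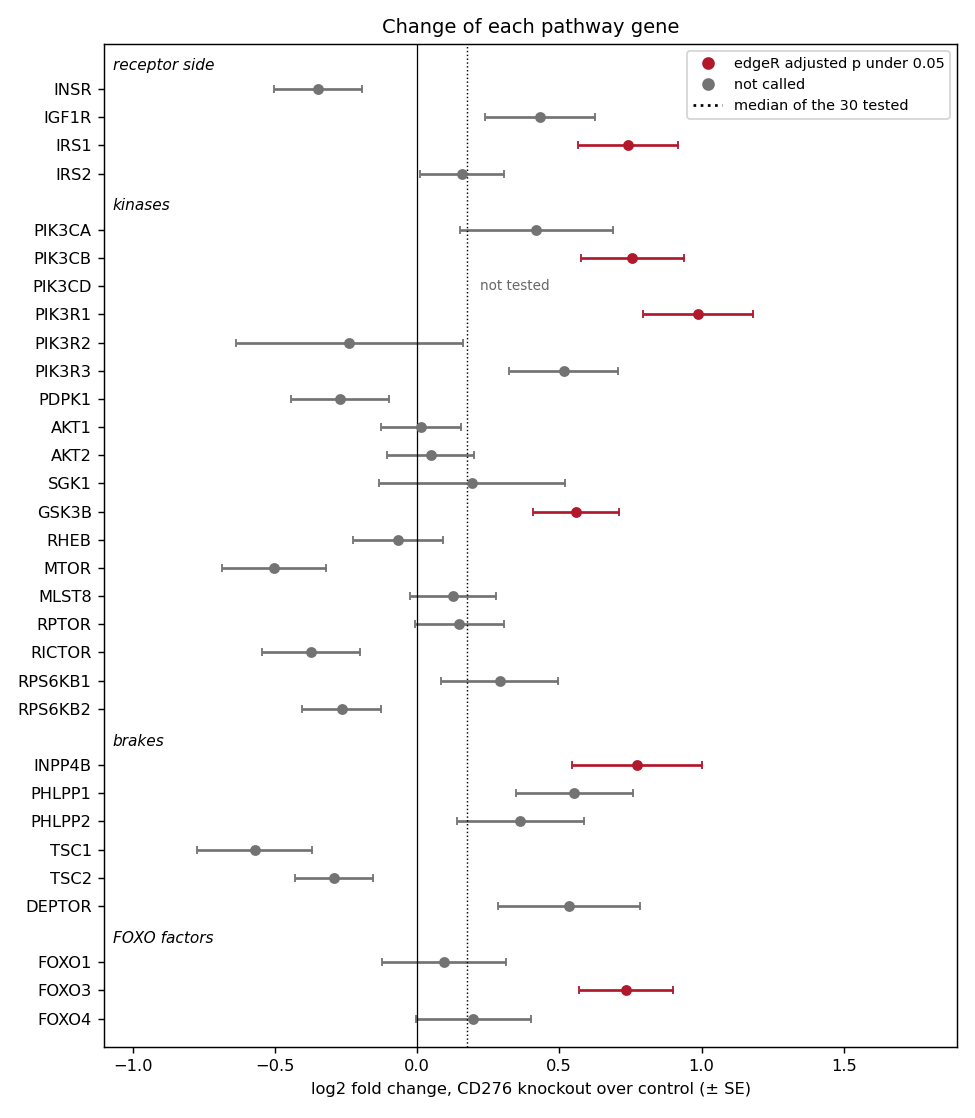
Log2 fold change of knockout over control with its SE for the 30 pathway genes tested, grouped by role, with the genes that passed the test marked. The 6 marked genes lie between 0.56 and 0.99, and the lowest values are those of TSC1 at -0.57 and MTOR at -0.50.

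Of the FOXO factors, forkhead transcription factors that AKT keeps out of the nucleus, FOXO3 rose. FOXO3 (chr6:108559835-108684774, plus strand) had 41.2 and 34.3 CPM in knockout libraries and 22.0 and 23.4 CPM in control libraries. Both knockouts were well above both controls. The means were 37.7 ± 4.86 CPM in knockouts and 22.7 ± 0.99 CPM in controls (SD, n = 2 each), 1.66-fold apart, and the log2 fold change was 0.73 ± 0.16 (edgeR adjusted p = 0.0168). FOXO1 had 9.52 and 11.4 CPM in knockout libraries and 11.02 and 8.57 CPM in control libraries, which overlap (0.09 ± 0.22, edgeR adjusted p = 0.788), and its sign turned with GC and length offsets. FOXO4 had 10.1 and 10.9 CPM in knockout libraries and 8.42 and 9.86 CPM in control libraries, with no overlap (0.20 ± 0.20, edgeR adjusted p = 0.504).

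The promoter windows of 5 pathway genes are printed. IRS1, PIK3R1 and FOXO3 are 3 of the 6 that rose. PIK3CA and FOXO4, which did not pass the test, are the 2 of the pathway that hold a forkhead core. The windows of PIK3CB, GSK3B and INPP4B, which also rose, are not printed. They hold 3, 2 and 0 GC boxes, beside 4, 5 and 5 in IRS1, PIK3R1 and FOXO3. Each printed window is the RefSeq window of 300 bases in the direction of the gene, 250 before to 50 after the most upstream annotated start, GRCh38.p14. Capitals mark the motifs searched on both strands: the forkhead core GTAAACA, bound by FOXO factors, the E-box CACGTG, and the GC box GGGCGG, and none of the marked copies overlaps another kind. The windows lie at chr2:226799771-226800070 (minus strand) for IRS1, chr5:68215506-68215805 (plus strand) for PIK3R1, chr6:108559575-108559874 (plus strand) for FOXO3, chr3:179148107-179148406 (plus strand) for PIK3CA and chrX:71095601-71095900 (plus strand) for FOXO4.
IRS1: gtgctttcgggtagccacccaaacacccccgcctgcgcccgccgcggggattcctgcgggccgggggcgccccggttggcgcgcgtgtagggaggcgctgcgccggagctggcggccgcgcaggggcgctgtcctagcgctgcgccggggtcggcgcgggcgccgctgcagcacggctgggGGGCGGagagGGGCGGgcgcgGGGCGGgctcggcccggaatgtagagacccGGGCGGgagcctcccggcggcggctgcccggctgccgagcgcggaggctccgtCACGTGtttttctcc
PIK3R1: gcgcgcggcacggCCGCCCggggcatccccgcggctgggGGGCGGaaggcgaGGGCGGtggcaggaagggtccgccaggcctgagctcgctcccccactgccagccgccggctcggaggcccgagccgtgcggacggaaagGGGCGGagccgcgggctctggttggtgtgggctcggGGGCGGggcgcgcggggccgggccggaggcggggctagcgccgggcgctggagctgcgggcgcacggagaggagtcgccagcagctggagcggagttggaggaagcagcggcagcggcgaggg
FOXO3: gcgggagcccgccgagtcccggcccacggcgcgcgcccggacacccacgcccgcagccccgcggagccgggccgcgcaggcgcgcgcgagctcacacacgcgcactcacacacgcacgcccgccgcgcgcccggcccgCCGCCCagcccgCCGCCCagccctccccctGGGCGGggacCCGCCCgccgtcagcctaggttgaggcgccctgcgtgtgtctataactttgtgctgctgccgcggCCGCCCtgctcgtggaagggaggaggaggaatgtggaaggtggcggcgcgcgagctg
PIK3CA: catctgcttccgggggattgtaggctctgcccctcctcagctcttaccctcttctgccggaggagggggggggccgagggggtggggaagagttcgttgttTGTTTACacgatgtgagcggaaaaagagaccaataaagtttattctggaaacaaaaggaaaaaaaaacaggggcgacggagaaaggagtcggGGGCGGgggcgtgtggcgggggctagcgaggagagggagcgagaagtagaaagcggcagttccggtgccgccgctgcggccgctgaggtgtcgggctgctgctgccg
FOXO4: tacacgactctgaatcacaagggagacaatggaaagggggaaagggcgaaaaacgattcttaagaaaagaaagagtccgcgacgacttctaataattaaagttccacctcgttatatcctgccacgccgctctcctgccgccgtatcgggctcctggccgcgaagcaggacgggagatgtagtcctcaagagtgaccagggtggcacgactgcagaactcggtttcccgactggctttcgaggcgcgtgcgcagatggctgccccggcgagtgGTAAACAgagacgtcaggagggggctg

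Most windows of the pathway held a GC box, among the genes that rose and among the others. Of the 29 pathway genes with a window, 2 held GTAAACA or its complement TGTTTAC, beside 3.42% of all 35116 windows. Of the 6 genes that rose, 0 held the forkhead core, 1 held an E-box (IRS1, beside 7.26% of all windows) and 5 held a GC box (beside 45.0%). INPP4B, which rose, held no GC box, and 16 of the other 23 genes held one. With 3.42% of all windows holding the core, 0 of 6 does not set these genes apart. The 6 had 33 to 47 CpG sites, with a median of 40.5, against a median of 27 (5 to 55) in the other 23 and 14 in all windows. A match is only a match of letters in this window. For each gene, here and among the FOXO targets below, only the window of the most upstream start was counted. INPP4B has 6 windows, and PIK3R1 and FOXO3 have 4 each, so a motif at another start is not shown. The shares over all windows include every start.

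Each gene's level per kilobase of annotated exon was set beside those of its relatives, as a rough description of which gene supplied most of the transcript. That length joins the exons of all annotated transcripts, so the order of genes within a family depends on the annotation. PIK3CB made up 78.9% and 79.5% of the class I PI3K catalytic transcripts in knockout libraries and 77.7% and 75.3% in control libraries. The summed level of that family was 7.96 and 5.84 CPM per kilobase in knockouts and 4.10 and 4.36 in controls. PIK3R3, not PIK3R1, was the most abundant regulatory subunit per length, at 70.9% and 62.2% in knockout libraries and 69.7% and 68.9% in control libraries. Of its exon length, 17.4% is shared on the same strand with AL358075.4. PIK3R1 supplied 24.8% and 29.7% in knockout libraries and 19.2% and 21.2% in control libraries, with no overlap.

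FOXO3 supplied the largest share of the FOXO transcripts in every library, at 54.5% and 47.1% in knockouts and 40.3% and 41.7% in controls. The FOXO sum was 9.79 and 9.42 CPM per kilobase in knockouts and 7.06 and 7.27 in controls, while the AKT sum was 41.1 and 37.6 in knockouts and 38.9 and 38.4 in controls. INSR gave 74.1% and 75.9% of the receptor transcripts in knockout libraries and 83.2% and 84.4% in control libraries, and the rest was IGF1R. IRS1 supplied 24.1% and 17.5% of the adaptor transcripts in knockout libraries and 13.6% and 15.9% in control libraries, so IRS2 remained the main adaptor.

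**Figure D3:**
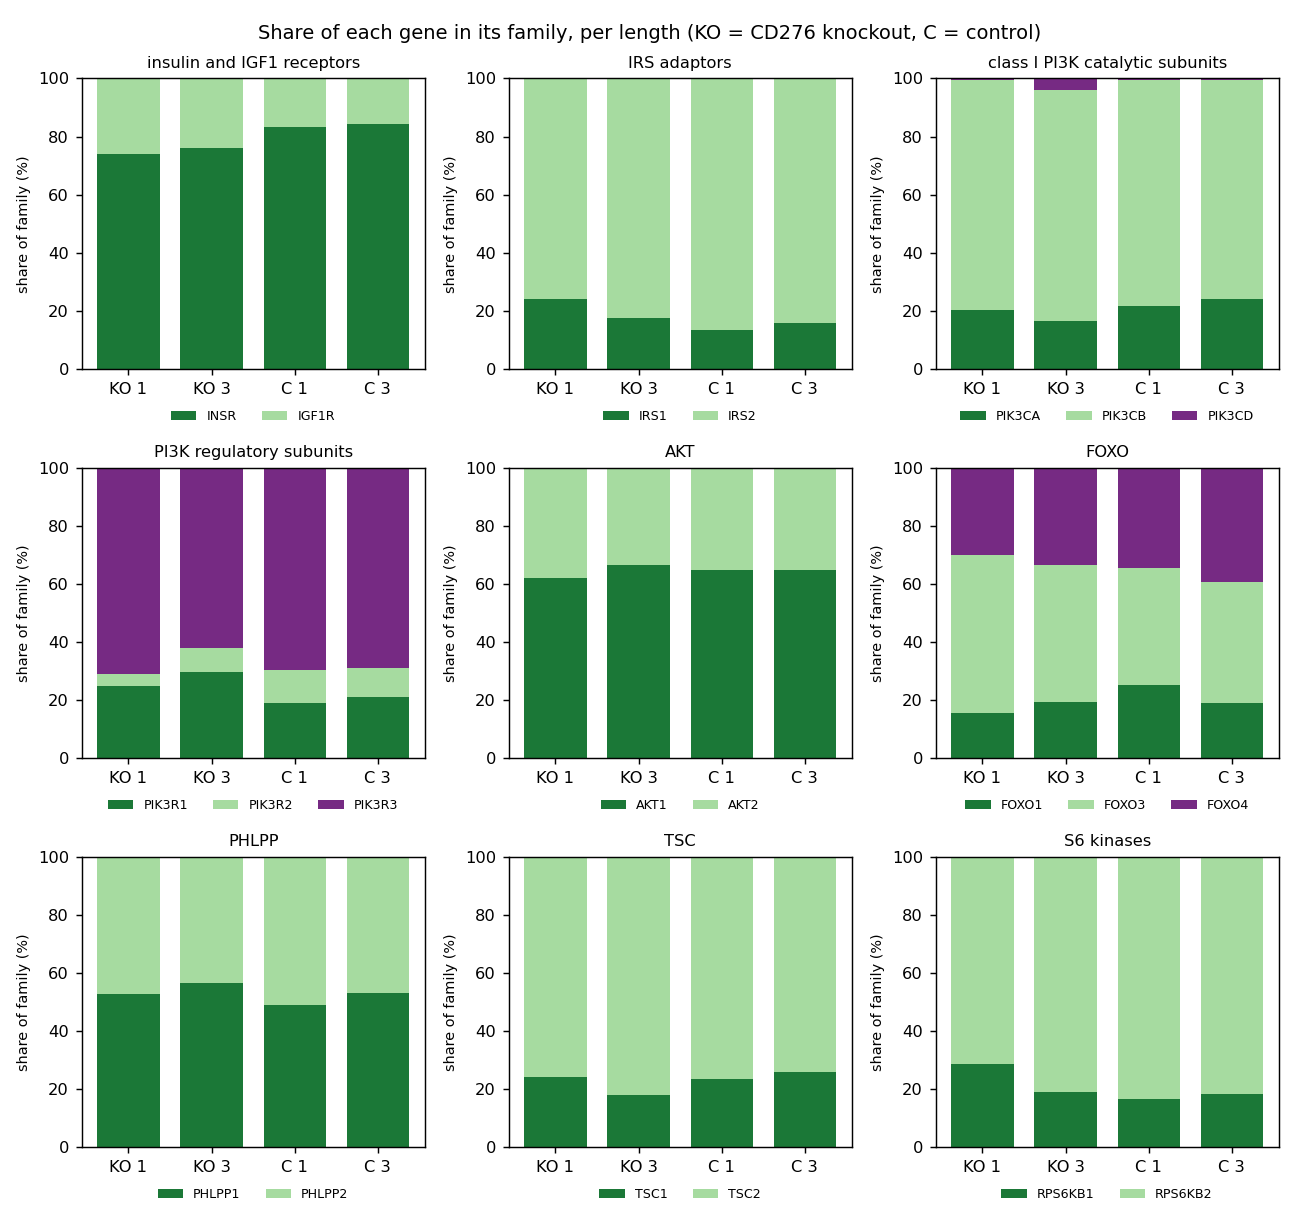
Share of each gene within its family, in percent of the family's summed CPM per kilobase of exon, in the knockout and control libraries. The bars show FOXO3 at 47.1% or more in both knockouts and at most 41.7% in both controls, with AKT1 at 62.0% to 66.5% in all 4.

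Levels per kilobase were also set side by side between subunits of the mTOR complexes and of the TSC complex. The level of MTOR was 1.40 and 1.21 times that of RPTOR in knockout libraries and 2.00 and 2.14 times in control libraries. RPTOR was 4.79 and 4.37 times RICTOR in knockouts and 3.17 and 3.23 times in controls. The groups overlap in neither ratio, and taken as single genes 65.9% of all genes tested did not overlap. TSC2 was 3.13 and 4.59 times TSC1 in knockouts and 3.27 and 2.86 times in controls, which overlap. These shares and ratios are descriptions with no test; an exact permutation test of 2 against 2 libraries could not give a p below 1 in 3.

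The knockout libraries differed from each other more than the controls did, in the pathway as in the whole table. The median gap between replicates was 0.30 on the log2 scale in knockouts and 0.096 in controls over the 30 genes, and 0.32 in knockouts and 0.14 in controls over all genes. The gap was wider in the knockouts for 22 of the 30 (73.3%; 70.5% of all genes). Knockout replicate 1 lay above replicate 3 in 19 of the 30, and in 8889 of 17894 of all genes. The widest gaps were in PIK3CA (0.76), PIK3R2 (0.69), RPS6KB1 (0.60), TSC1 (0.58) and MTOR (0.53). Among the genes that rose the gaps ran from 0.0071 in PIK3R1 to 0.44 in PIK3CB.

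**Figure D4:**
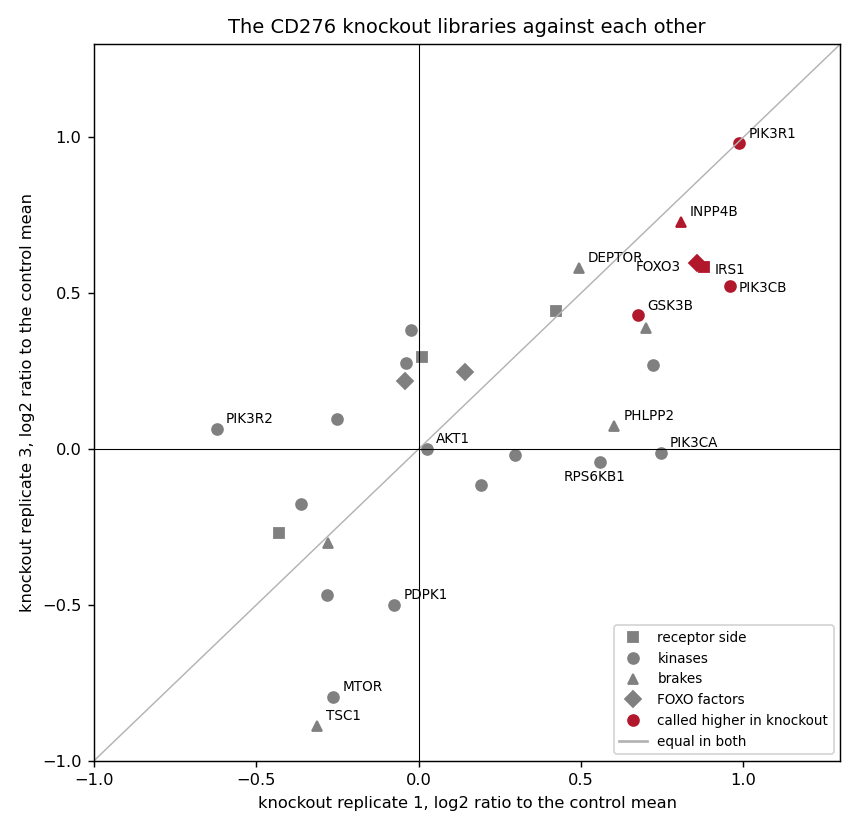
Log2 difference from the control mean of each tested pathway gene in knockout replicate 1 (x axis) and knockout replicate 3 (y axis). The 6 genes that rose lie in the upper right, above 0 in both libraries, and PIK3CA and RPS6KB1 are high in replicate 1 and near 0 in replicate 3.

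The transcripts of the genes that rose had a median GC content of 41.2% (37.2 to 50.7), beside 51.8% (34.8 to 64.5) for the genes not called. With GC and length offsets fitted per library, the 6 were still called higher, MLST8 was also called higher, and MTOR and TSC1 were called lower. Of the exon length of INPP4B, 0.81% lies opposite another gene, and the other 5 share no annotated exon.

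Around these genes, 5 wider lists of pathway genes held 140 genes, counting each once, of which 126 were tested; 25 rose (19.8%, beside 9.87% of all genes) and 10 fell (7.94%, beside 12.9%). The median log2 fold change over the 126 was 0.19, beside -0.0045 over all genes. Among the nuclear protein-coding genes of the same fit, 12.2% rose, 11.2% fell and the median was 0.058. The lists were written from general knowledge and are described by counts only.

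In the IGF axis and other adaptors, 1 of 14 tested genes rose (7.14%, beside 9.87% of all genes) and 2 fell (14.3%, beside 12.9%), shares near those of all genes. IGFBP3, a secreted protein that binds IGFs, fell to 79.6 and 95.9 CPM in knockout libraries, against 141 and 138 CPM in control libraries (log2 fold change -0.67 ± 0.15, edgeR adjusted p = 0.0152). GAB2, a docking protein that recruits PI3K, had 13.2 and 13.1 CPM in knockout libraries and 8.15 and 8.78 CPM in control libraries (0.64 ± 0.19, edgeR adjusted p = 0.0425), a call lost with upper quartile scaling and with nuclear protein-coding genes alone. SH2B1, an adaptor of the insulin receptor, fell (-0.47 ± 0.14, edgeR adjusted p = 0.0458), a call lost with RLE scaling, library totals, DESeq2 and the GC offsets.

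Among other PI3K, phosphoinositide and AKT genes, 1 of 22 rose (4.55%, beside 9.87% of all genes) and 3 fell (13.6%, beside 12.9%). The 3 were INPP5J, INPPL1 and INPP5E, which encode inositol lipid phosphatases, while INPP5K (log2 fold change 0.19) and INPP4A (-0.08) of the same list did not pass the test and INPP4B rose. INPP5J fell to 67.0 and 63.3 CPM in knockout libraries, against 120.5 and 113 CPM in control libraries (-0.84 ± 0.13, edgeR adjusted p = 0.00635). INPPL1 had 171 and 142 CPM in knockout libraries and 228 and 238 CPM in control libraries (-0.57 ± 0.15, edgeR adjusted p = 0.0277), and INPP5E had 41.8 and 39.4 CPM in knockout libraries and 61.2 and 56.4 CPM in control libraries (-0.53 ± 0.14, edgeR adjusted p = 0.0284). The calls of INPPL1 and INPP5E were lost with library totals. PIK3C2B, a class II PI3K, rose, at 17.97 and 16.6 CPM in knockout libraries and 11.2 and 11.6 CPM in control libraries (0.61 ± 0.18, edgeR adjusted p = 0.0398), and the call was lost with nuclear protein-coding genes alone.

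Among 23 other mTOR complex subunits and outputs, 6 rose (26.1%, beside 9.87% of all genes) and 2 fell (8.70%, beside 12.9%). EIF4E, the cap-binding protein that mTOR controls through its binding proteins, had 77.8 and 67.6 CPM in knockout libraries and 39.7 and 44.3 CPM in control libraries (0.79 ± 0.15, edgeR adjusted p = 0.00951). EIF4B, a cofactor of the initiation helicase and a target of S6 kinase, had 958 and 1061 CPM in knockout libraries and 549 and 586 CPM in control libraries (0.83 ± 0.17, edgeR adjusted p = 0.0128). PDCD4, an inhibitor of that helicase, also rose (0.71 ± 0.14, edgeR adjusted p = 0.0120), and 28.1% of its exon length lies opposite another gene. MAPKAP1, a subunit of complex 2, rose to 87.5 and 88.7 CPM in knockout libraries, against 57.4 and 59.01 CPM in control libraries (0.60 ± 0.13, edgeR adjusted p = 0.0155). TTI1 and EIF4EBP2 rose as well. TELO2 and ULK1 fell, and of these lower calls in the list 0 were left with library totals and 1 with RLE scaling, DESeq2 and the GC and length offsets.

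Of 40 genes that sense amino acids and energy upstream of complex 1, 7 rose (17.5%, beside 9.87% of all genes) and 3 fell (7.5%, beside 12.9%). RRAGD, a Rag GTPase that brings complex 1 to the lysosome, had 42.3 and 54.5 CPM in knockout libraries and 23.1 and 28.2 CPM in control libraries (0.92 ± 0.18, edgeR adjusted p = 0.0118). CAB39, a partner of the kinase that activates AMPK, had 42.0 and 33.6 CPM in knockout libraries and 23.3 and 21.2 CPM in control libraries (0.77 ± 0.17, edgeR adjusted p = 0.0171). WDR59, a subunit of the GATOR2 complex, fell to 53.6 and 55.2 CPM in knockout libraries, against 84.8 and 79.9 CPM in control libraries (-0.60 ± 0.13, edgeR adjusted p = 0.0160). ITFG2, a subunit of the KICSTOR complex, fell to 27.8 and 26.7 CPM in knockout libraries, against 42.6 CPM in each control library (-0.64 ± 0.15, edgeR adjusted p = 0.0173), with 18.7% of its exon length opposite another gene. The others that passed were RRAGC, CASTOR2, PRKAB2, PRKAG2 and DDIT4L, which rose, and NPRL2, which fell.

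Genes known as FOXO targets had the highest share of rising genes among the 5 lists. Of 32 tested genes, 10 rose (31.25%, beside 9.87% of all genes) and 0 fell (beside 12.9%). DESeq2 called 11 higher and 0 lower (11.2% and 10.7% of all genes), and limma voom 10 and 0 (9.08% and 12.9%). At an unadjusted edgeR p under 0.05 the counts were 14 higher and 1 lower (17.9% and 20.9% of all genes). The median log2 fold change of the 32 was 0.41. Taken library by library against the control mean, the list's median log2 difference stood at 0.12 for knockout replicate 1 and at 0.61 for replicate 3. Most of the list's calls were lost when either control was left out, as most calls over all genes were.

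CITED2, a regulator of p300-dependent transcription, had 225 and 229 CPM in knockout libraries and 79.4 and 96.1 CPM in control libraries (log2 fold change 1.37 ± 0.15, edgeR adjusted p = 0.00287). DDB1, a damage-recognition and ubiquitin ligase subunit, had 313 and 245 CPM in knockout libraries and 117 and 141 CPM in control libraries (1.11 ± 0.17, edgeR adjusted p = 0.00615). MXI1, an antagonist of MYC, had 48.4 and 61.4 CPM in knockout libraries and 24.5 and 27.9 CPM in control libraries (1.07 ± 0.17, edgeR adjusted p = 0.00645). All 3 are well separated from the controls, and several genes of this list, such as CDKN1A and MXI1, are known targets of p53 or of hypoxia factors as well, so the list does not mark FOXO activity alone. The others that rose were HBP1, CDKN1B, CDKN1A, KLF9, TXNIP, SOD2 and PINK1. In PINK1, 39.4% of the exon length lies opposite PINK1-AS, so its counts are uncertain.

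HBP1, a repressor of cell cycle genes, had 48.7 and 52.8 CPM in knockout libraries and 28.6 and 26.9 CPM in control libraries (0.87 ± 0.15, edgeR adjusted p = 0.00719), with 15.4% of its exon length opposite another gene. Its window (chr7:107168753-107169052, plus strand) is shown as 1 of the 2 windows of risen list genes that hold the forkhead core, the other being that of TXNIP.
HBP1: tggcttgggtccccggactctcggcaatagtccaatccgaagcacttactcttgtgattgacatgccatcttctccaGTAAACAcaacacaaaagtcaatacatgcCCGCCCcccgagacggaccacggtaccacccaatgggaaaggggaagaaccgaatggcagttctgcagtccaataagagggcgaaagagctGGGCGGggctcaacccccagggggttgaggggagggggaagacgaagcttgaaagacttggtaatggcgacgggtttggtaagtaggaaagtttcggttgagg

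Of 30 list genes with a window, 4 held the core (TXNIP, BCL2L11, HBP1 and DEPP1), and of the 9 with a window that rose, 2 did, beside 3.42% of all windows.

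**Figure D5:**
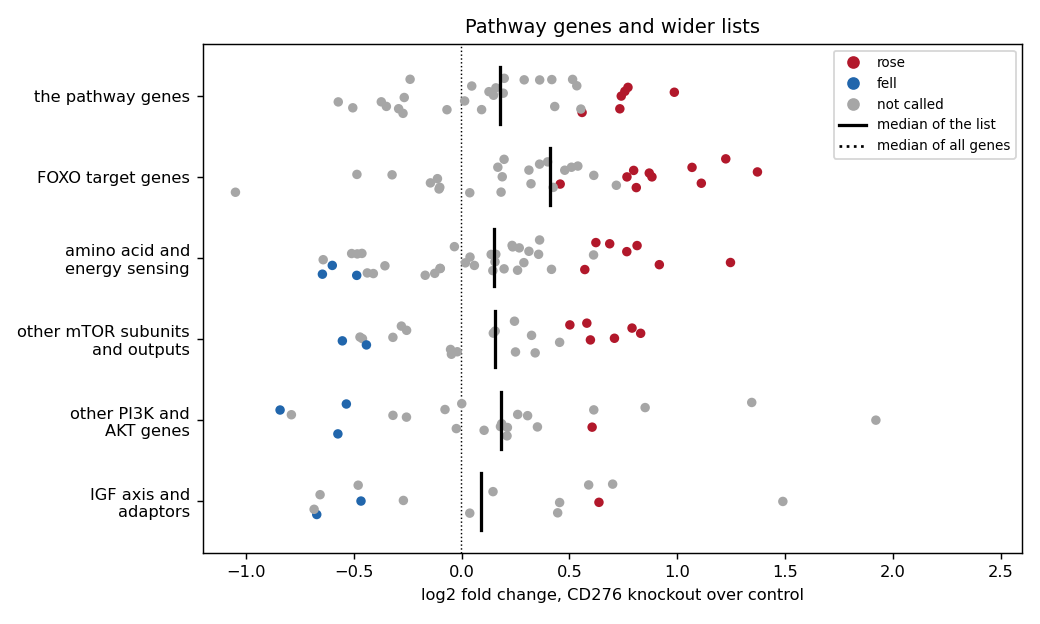
Log2 fold change of knockout over control for the tested genes of the pathway and of the 5 wider lists, with 1 point a gene, the genes called marked and the median drawn. The FOXO target genes have the highest median at 0.41 and no gene called lower, beside medians of 0.09 to 0.18 for the pathway and the other 4 lists.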

How the data were processed

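The deposited counts per gene are raw whole numbers that the authors made for 4 libraries. Per the submitters' processing notes, the tools were STAR 2.5.2b, Trimmomatic 0.36 and, of Subread 1.5.2, featureCounts, with build GRCh38. How strand and multi-mapping reads were treated, and the annotation release, was not given in the sources used here. Without strand, reads of a gene and its antisense partner cannot be told apart. The 486 rows of 57500 without a name (0.0191% to 0.0290% of a library) were left out.

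Levels and tests used TMM scaling, filterByExpr and the quasi-likelihood test of edgeR 4.0.16 under R 4.3.3, with robust estimation, group alone in the design and 2 residual degrees of freedom, with Benjamini-Hochberg adjustment over all 18043 genes tested. SE is the size of the log2 fold change over the square root of F. Positions (1-based), exons and GC content are from GENCODE 29. The alternatives used DESeq2 1.42.0, limma 3.58.1 and mgcv 1.9.3 for the GC and length offsets. The fit was tested on simulated data. The replicate numbers are not known to pair the libraries.

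The pathway genes and lists were chosen with earlier results of these data known. All 31 pathway genes, CD276 and up to 4 called genes of smallest p per wider list are named with values; 1 marker of the line is not reported here, and further genes are named because they were called, overlap or mark a cell type.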

Additional observations from a re-analysis of the deposited data

How the results depend on the processing

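With 2 libraries a group, the counts of calls depended on which libraries were in the fit: leaving out 1 library in turn gave 0 to 18 pathway genes called, 283 to 9261 over all genes, 0 to 9 in the IGF axis list, 0 to 9 in the other PI3K list, 0 to 15 in the mTOR list, 0 to 25 in the sensing list and 1 to 25 among FOXO targets. The low ends came without a control and the high ends without a knockout; 1 residual degree of freedom is then left, and a lone library is taken to vary as the other group does.

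The 6 pathway calls held under RLE, upper quartile and library-total scaling, a filter of 50 counts, DESeq2, limma voom, robust=FALSE and the GC and length offsets, and 5 with nuclear protein-coding genes alone. With no filter on low counts 10 of the pathway genes and 6 of the IGF axis list were called. Over all genes that fit called 2512 higher and 2841 lower, beside 1780 and 2331 in the main fit. Same-numbered libraries did not deviate together (r = -0.0152). The fit with the replicate block called 8 pathway genes (adding MTOR, at a log2 fold change of -0.53, and TSC1, both lower) and 5 of the IGF axis list. Over all genes the block fit called 2062 higher and 2781 lower.

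Directions turned in genes that were not called. AKT1 was -0.0133 with upper quartile scaling, -0.0238 with the filter of 50 counts and -0.0217 with nuclear protein-coding genes alone, RHEB was 0.035 with library totals, and FOXO1 was -0.0262 with GC and length offsets. Leaving out 1 library gave log2 fold changes of -0.0083 to 0.80 in PIK3CA, -0.57 to 0.0628 in PIK3R2, -0.12 to 0.25 in AKT2, -0.20 to 0.0947 in RHEB, -0.0198 to 0.35 in RPTOR, -0.0402 to 0.61 in RPS6KB1 and -0.0745 to 0.29 in FOXO1; the cause was not tested.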
